A study of Mus musculus with 8 samples.

Results

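Whole lungs of bone marrow chimeric mice that carried the toxin receptor in both donor marrow and recipient were compared with lungs in which only the recipient carried it. Both groups received marrow into LysM-DTR recipients, mice with the diphtheria toxin receptor under the promoter of lysozyme M, in which the toxin kills the cells that made the receptor. The group LL had LysM-DTR marrow in LysM-DTR recipients, and the group WL had wild-type marrow in LysM-DTR recipients. The samples were chosen by title and were 4 of the 8 arrays of the series, with 2 mice in each group. The other 4 arrays, used here for the levels without the recipient's receptor, came from LW (LysM-DTR marrow in wild-type recipients) and WW (wild-type marrow in wild-type recipients), again with 2 mice each. All were male, 22 weeks old and harvested 72 hours after diphtheria toxin, and no lung without toxin is among the arrays, so each level is one reached after the toxin. The donors' sex, the dose of toxin and the share of recipient blood cells and lung macrophages that outlived the transfer are not given in the sources used here. A LysM-DTR recipient keeps the receptor in lung epithelial cells that make lysozyme M and any of its own blood cells or macrophages that persist.

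Lysozyme M, the product of Lyz2, is a bacteria-killing enzyme of phagocytes such as monocytes, macrophages and neutrophils. Alveolar type 2 cells, which secrete surfactant and renew the alveolar lining, make it too. Monocytes, the macrophages that arise from them, neutrophils, dendritic cells and lymphocytes descend from marrow, while the alveolar epithelium belongs to the recipient. The comparison of LL with WL therefore asks what the receptor in marrow-derived cells adds when the recipient's own cells already carry it.

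The 2 WL mice stood apart from each other. They differed by more than 1 on the log2 scale in 17.5% of the genes, against 3.52% for the LL mice, 2.89% for the LW mice and 2.59% for the WW mice. Across genes, which are not independent replicates, the levels of WL mouse 1 correlated with those of the WW mice at 0.99, and those of WL mouse 2 correlated most closely with those of the LL mice, at 0.968 and 0.976. The results are therefore given against both WL mice and against each. The 8 arrays shared 1 slide and 1 scan. LL and WL took places 1 to 4 of one column, LL first, so donor genotype and place cannot be told apart in this comparison; LW and WW lay in the same order in the other column. The 75th percentile of the processed signal ran from 208.6 to 324.4 over the 8 arrays, between 66.3% and 72.3% of the spots were well above background, and 0 spots were saturated. The lung surfactant gene Sftpc, the type 1 cell gene Ager and the club cell gene Scgb1a1 were well above background in all 4 LL and WL mice.

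Levels below are log2 of the processed signal minus the 75th percentile of the same array, so that 0 is that percentile, and they are compared between mice for 1 probe, not between genes. Both LL mice lay above both WL mice for 6063 of 25830 genes (23.5%) and below both for 3703 (14.3%). At a gap of at least 1 between the nearest mice of the groups, the counts were 245 higher (0.949%) and 500 lower (1.94%) in LL. In limma's test on all 8 arrays, called at a Benjamini-Hochberg adjusted p under 0.05, 148 genes (0.573%) were higher and 297 (1.15%) lower in LL. With normexp background correction the calls were 219 higher and 252 lower, so that 46.5% rather than 33.3% of called genes were higher, and 75% rather than 62.1% of the non-overlapping genes. The median difference over all genes was 0.05. Of the called genes, 296 of the 297 lower and 146 of the 148 higher also had both LL mice beyond both WW mice on the same side. Predicted genes and unnamed clones made up 43.9% of the called higher genes, 21.5% of the called lower genes and 37.7% of all genes.

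The counts moved with single mice. Leaving out WL mouse 1 gave 1294 higher and 1171 lower genes, and leaving out WL mouse 2 gave 2782 and 2309; in both fits the remaining WL mouse was assumed to vary like the other groups. Leaving out LL mouse 1 gave 0 higher and 23 lower, LL mouse 2 gave 30 and 165, either LW mouse gave 32 and 93, and either WW mouse gave 50 and 89. Each of these fits left 1 mouse in a group. Without a WL mouse, the spread between the WL mice also left the fit, so the larger counts do not show more reliable differences. A fit to the LL and WL arrays alone, with 2 residual degrees of freedom, called 0 genes at the adjusted threshold and 2113 at an unadjusted p under 0.05.

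Of the gene lists described, that of monocytes and recruited macrophages had the lowest median difference between LL and WL. Of 29 such genes, 14 were called lower, against 1.15% of all genes, and 0 higher, both LL mice lay below both WL mice for 19, against 14.3%, and the median difference was -2.89, against 0.05 over all genes. Both LL mice lay above both WL mice for 1 gene, Ly6c2, against 23.5% of all genes, and 9 genes overlapped. Ly6c2, a monocyte gene, was at 8.08 and 8.39 in LL and at 6.82 and 7.77 in WL. Both LL mice lay below both WW mice for 21 genes of the list and above both for 8. The median difference of the list was -2.26 against WL mouse 1 and -3.16 against WL mouse 2. The mean of the list, set against the WW mice, was -2.30 and -1.86 in LL, 0.29 and 0.91 in WL, and -0.30 to 0.04 in LW and WW. In whole lungs, fewer cells of a type and less RNA per cell cannot be told apart.

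Ms4a7, a four-transmembrane protein of mature macrophages, stood at -5.05 and -4.80 in the LL mice and at 1.86 and 1.76 in the WL mice. It lay between 0.72 and 1.24 in the 4 LW and WW mice. The groups were far apart: LL was lower by a log2 difference of -6.74 ± 0.21 (standard error of the fit, limma adjusted p = 0.00112), and 1 of the 2 LL mice was not well above background, so the size is uncertain. Cx3cr1, the receptor for fractalkine on patrolling monocytes and resident macrophages, was at -4.35 and -4.82 in LL and at 2.30 and 1.36 in WL. Both WL mice again lay far above both LL mice (-6.41 ± 0.35, adjusted p = 0.00384, with 1 of the 2 LL mice not well above background, so the size is uncertain), and the LW and WW mice, at 1.28 to 2.01, lay close to the WL mice. Ccr2, the receptor by which inflammatory monocytes leave the marrow, stood at -4.68 and -4.09 in LL against 0.39 and 0.95 in WL (-5.05 ± 0.34, adjusted p = 0.00579). Adgre1, which encodes the macrophage antigen F4/80, was at -4.12 and -2.21 in LL and at 1.86 and 1.51 in WL. The 2 LL mice differed from each other by more than the WL mice here, and the groups did not overlap (-4.85 ± 0.58, adjusted p = 0.0202). Fcgr1, the high-affinity receptor for IgG, was not well above background in either LL mouse and was at -0.87 and 0.52 in WL, which bounds the difference at least 30.2-fold (limma adjusted p = 0.0165). Csf1r, the receptor for the macrophage growth factor CSF1, was called on its brightest probe, at 3.59 and 3.28 in LL against 4.77 and 4.47 in WL (adjusted p = 0.0463), but its other probe gave a difference of 0.01. For genes at background the bound sets the WL mean against the higher of the gene's own signal and the dimmest signal above background on each LL array.

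The complement component C1q, a hexamer of 3 chains made in tissues largely by macrophages, fell in all its chains. C1qa was at -3.70 and -3.97 in LL and at 1.77 and 2.22 in WL (-5.83 ± 0.24, adjusted p = 0.00259). C1qb was at -2.77 and -2.98 against 1.41 and 1.97 (-4.57 ± 0.24, adjusted p = 0.00362), and C1qc at -2.13 and -2.86 against 3.14 and 3.54 (-5.84 ± 0.28, adjusted p = 0.00269). For each chain both WL mice lay above all 4 LW and WW mice, whose levels ran from 0.67 to 1.1 for C1qa, 0.19 to 0.60 for C1qb and 2.13 to 2.41 for C1qc. The 3 genes are neighbours on mouse chromosome 4, where the array's probes lie between 136436578 and 136452468 on mm9. In a list of 23 complement and Fc receptor genes, 8 were called lower and 0 higher, against 1.15% and 0.573% of all genes. The median difference of the list was -1.93 against WL mouse 1 and -0.15 against WL mouse 2. The other complement genes of that list did not move as one: C3, the central component, was at 7.92 and 8.31 in LL and 7.55 and 7.52 in WL (0.58 ± 0.20, adjusted p = 0.253), and both LL mice lay above both WL mice for 8 genes of the list and below for 11. C3ar1, the receptor for the C3a fragment on myeloid cells, was not well above background in either LL mouse (limma adjusted p = 0.0137), which bounds it at least 9.14-fold below WL.

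The promoter of Lyz2 drives the receptor. The bases before the starts of C1qc, C1qb, Slamf9 and Pf4, picked from the called lower genes, are shown next to those of Lyz2. They come from RefSeq on GRCm38.p6, run 5′ to 3′ on the gene's strand and end at the base before the annotated start; the probe positions above are on another build, mm9, and are not comparable with them. Capitals mark the letters GAGGAAGT, or ACTTCCTC on the other strand, an 8-base string of the kind bound by PU.1, the transcription factor of myeloid cells.
Lyz2, chr10:117282273-117282522, minus strand: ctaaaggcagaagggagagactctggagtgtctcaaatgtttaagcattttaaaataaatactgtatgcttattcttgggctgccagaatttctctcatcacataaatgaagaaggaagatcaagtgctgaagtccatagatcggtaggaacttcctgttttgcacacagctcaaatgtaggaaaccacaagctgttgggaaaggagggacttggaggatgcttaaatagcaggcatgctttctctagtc
C1qc, chr4:136892915-136893164, minus strand: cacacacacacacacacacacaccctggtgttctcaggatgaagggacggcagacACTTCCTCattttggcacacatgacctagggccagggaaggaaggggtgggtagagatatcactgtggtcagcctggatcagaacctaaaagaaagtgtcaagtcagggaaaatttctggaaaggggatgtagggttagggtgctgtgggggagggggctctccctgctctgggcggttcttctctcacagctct
C1qb, chr4:136886201-136886450, minus strand: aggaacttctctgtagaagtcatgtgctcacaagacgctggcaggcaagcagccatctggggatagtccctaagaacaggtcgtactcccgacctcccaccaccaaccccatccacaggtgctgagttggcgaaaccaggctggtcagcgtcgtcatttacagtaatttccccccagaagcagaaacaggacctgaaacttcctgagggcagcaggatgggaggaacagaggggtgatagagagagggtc
Slamf9, chr1:172475110-172475359, plus strand: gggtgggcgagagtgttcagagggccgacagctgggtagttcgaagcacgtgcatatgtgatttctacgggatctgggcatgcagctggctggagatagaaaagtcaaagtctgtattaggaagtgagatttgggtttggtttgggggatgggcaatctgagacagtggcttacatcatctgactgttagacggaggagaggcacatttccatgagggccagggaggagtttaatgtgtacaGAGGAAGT
Pf4, chr5:90772185-90772434, plus strand: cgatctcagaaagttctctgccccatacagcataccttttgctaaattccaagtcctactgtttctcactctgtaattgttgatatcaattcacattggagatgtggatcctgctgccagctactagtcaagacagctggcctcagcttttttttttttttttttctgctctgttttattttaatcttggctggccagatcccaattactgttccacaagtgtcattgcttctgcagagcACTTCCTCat
The exact string occurs 1 time each in the sequences of C1qc, Slamf9 and Pf4, starting 195, 8 and 10 bases before the start. It occurs 0 times in those of Lyz2 and C1qb, which hold acttcctg, the same letters but for the last. Near matches were not counted, so a count of 0 does not show that a site of this kind is missing. The genes shown were picked, so they do not stand for the called lower genes, of which 15.2% held the string.

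Among genes with a RefSeq promoter, the string was found on either strand within 250 bases before the start in 30 of 198 called lower genes (15.2%), in 1 of 70 called higher genes (1.43%), in 401 of 13827 genes tested (2.9%) and in 755 of 27025 promoters in all (2.79%). Among the genes with a gap of at least 1 it was found in 34 of 314 lower (10.8%) and 6 of 109 higher (5.5%). A match is a description of the letters, and no match says only that they are not in this window.

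The 12 largest called drops among genes above background on all 4 arrays included Clec7a, which encodes dectin-1, the receptor for fungal beta-glucan, at -3.53 and -2.58 in LL, 3.44 and 2.93 in WL and 2.49 to 3.13 in LW and WW (-6.24 ± 0.36, adjusted p = 0.00516). Clec4b1, another C-type lectin, was at -3.23 and -1.63 in LL against 1.67 and 1.82 in WL (-4.17 ± 0.53, adjusted p = 0.0229). Sirpb1b, a receptor of the signal-regulatory family, was at -3.24 and -1.70 against 1.94 and 2.86 (-4.87 ± 0.56, adjusted p = 0.0185). In all 3 the WL mice lay within or slightly above the range of the LW and WW mice, and the LL mice lay far below it.

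Of the same 12 genes, Ctss, cathepsin S, the lysosomal protease that trims antigen-presenting complexes, was at 0.37 and 1.08 in LL and 5.80 and 5.28 in WL (-4.82 ± 0.31, adjusted p = 0.00579). Tbxas1, thromboxane synthase, was at -3.70 and -3.33 against 0.49 and 0.90 (-4.21 ± 0.28, adjusted p = 0.00579). Aif1, the calcium-binding macrophage protein Iba1, named for the width of its gap, was at -0.91 and -1.20 against 2.77 and 2.45 (-3.67 ± 0.23, adjusted p = 0.00579). For these 3 genes the mice of a group lay within 0.71 of each other and the groups lay more than 3 apart. Nckap1l, the haematopoietic subunit of the WAVE actin complex, Ly86, the partner of a Toll-like receptor homologue, Evi2a, Pld4, Scimp and Slamf9 were among the 10 further genes with the widest gaps below WL and were called, with differences from -3.68 to -3.21. Slamf9, a surface protein of the SLAM family whose upstream bases are shown above, was at -1.62 and -1.27 in LL and at 1.79 and 1.73 in WL, and the LW and WW mice lay between 1.20 and 1.72. Its difference was -3.21 ± 0.22 (adjusted p = 0.00579).

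**Figure D1:**
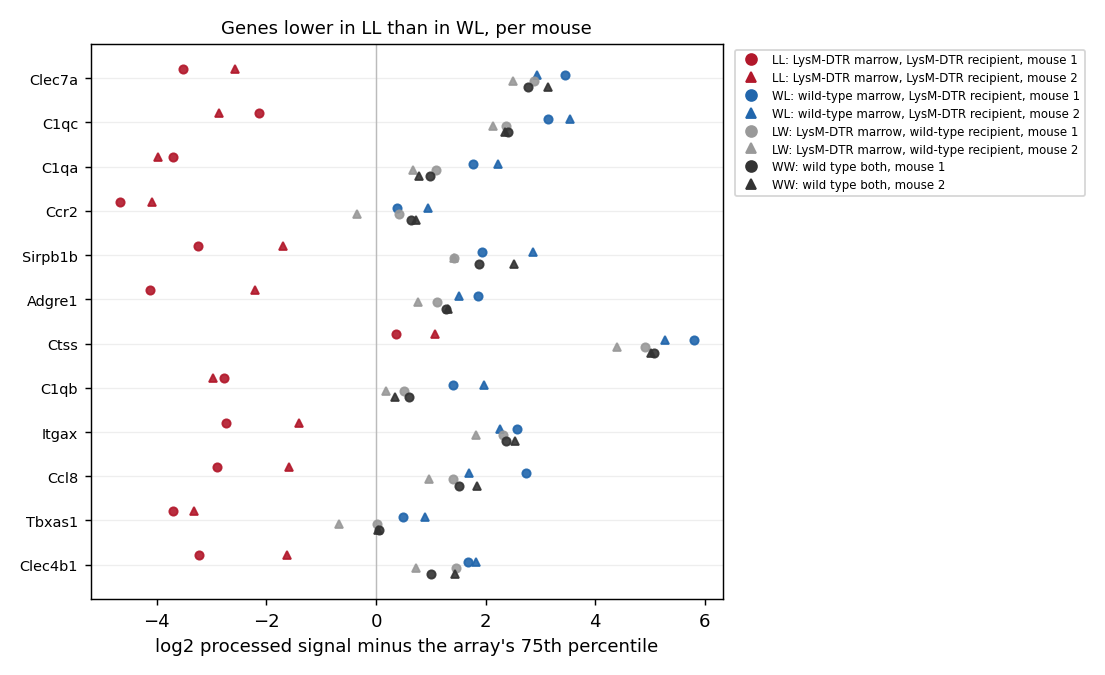
Level of the 12 genes with the largest called drop in LL among those above background on all 4 LL and WL arrays; the x axis is log2 processed signal minus the array's 75th percentile, and each symbol is 1 mouse of the group given by its colour. For every gene shown, both LL mice lie to the left of all 6 other mice, as for C1qa at -3.70 and -3.97 against levels of 0.67 or more.

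Alveolar macrophages, which fill the airspaces and clear surfactant, showed a less even pattern. Of 21 of their genes 3 were called lower and 0 higher, against 1.15% and 0.573% of all genes. Both LL mice lay below both WL mice for 14 of the 21, against 14.3% of all genes. Itgax, the integrin CD11c of alveolar macrophages and dendritic cells, was at -2.73 and -1.40 in LL against 2.57 and 2.26 in WL (-4.48 ± 0.43, adjusted p = 0.0129). Mrc1, the mannose receptor, was at -1.45 and -1.06 against 1.54 and 2.33 (-3.19 ± 0.34, adjusted p = 0.0166), and Fabp5, a fatty acid carrier, at 1.84 and 2 against 5.08 and 4.31 (-2.77 ± 0.28, adjusted p = 0.0137). In these 3 genes both WL mice stood near or above the LW and WW mice and far above both LL mice. Siglecf, the sialic acid lectin that defines the alveolar macrophage, was not well above background in either LL mouse, at -5.67 and -6.58, and the WL mice were at -0.20 and -2.90 (adjusted p = 0.0713). WL mouse 2 lay below all 4 LW and WW mice for Siglecf, which ran from -1.74 to -0.73. Over the list, the median difference was -2.14 against WL mouse 1 and -0.47 against WL mouse 2. WL mouse 2 lay nearer the LL mean for 16 of the 21 genes, against 53% of all genes.

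Lyz2 itself, the gene whose promoter drives the receptor, was at 4.67 and 4.94 in LL and at 8.70 and 7.36 in WL, with 8.84 to 9.09 in LW and WW. LL was lower by a log2 difference of -3.23 ± 0.41 (adjusted p = 0.0229), a 9.35-fold difference, and WL mouse 2 stood between LL and the rest. A second Lyz2 probe gave -3.90. Lyz1, a near-identical neighbouring copy whose probe may share its signal, was at 2.76 and 3.14 in LL and 7.03 and 5.46 in WL (adjusted p = 0.0341).

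Among the chemokines, Ccl8, a member of the CC family, was at -2.91 and -1.58 in LL and at 2.73 and 1.70 in WL (-4.46 ± 0.52, limma adjusted p = 0.0194). Ccl6, made by resident macrophages, was at 1.38 and 1.78 against 5.37 and 5.39 (-3.80 ± 0.46, adjusted p = 0.0209). These 2 were the called genes among 31 chemokines, and 0 were called higher, against 1.15% and 0.573% of all genes. The median difference of the list was 0.28 against WL mouse 1 and -0.93 against WL mouse 2. Ccl12, a monocyte attractant, was at -3.38 and -3.55 in LL and at -0.72 and 3.13 in WL, with the WL mice too far apart for a call (adjusted p = 0.127). Mmp12, the macrophage elastase, was at -5.54 and -4.12 in LL, -0.70 and 0.67 in WL and -2.64 to -1.59 in LW and WW, and both WL mice lay above all 6 other mice (-4.81 ± 0.66, adjusted p = 0.0294); 1 of the 2 LL mice was not well above background.

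Antigen-presenting cells use MHC class II proteins to display peptides to helper T cells. All 10 measured MHC class II genes had both LL mice below both WL mice, against 14.3% of all genes. Of these, 1 was called lower, against 1.15% of all genes. The called gene, H2-DMa, part of the complex that loads peptides, was at -1.65 and -1.10 in LL and at 1.18 and 0.60 in WL (-2.26 ± 0.32, adjusted p = 0.0301). H2-Aa, the class II alpha chain, was at -0.37 and 0.50 in LL, 3.24 and 1.58 in WL and 2.88 to 3.13 in LW and WW (-2.35 ± 0.55, adjusted p = 0.118). WL mouse 1 matched the wild-type recipients for H2-Aa, and WL mouse 2 lay between them and LL. The median over the list was -3.09 against WL mouse 1 and -1.37 against WL mouse 2. Of 18 dendritic cell genes, 3 were called lower and 0 higher, and 12 lay lower in both LL mice, against 1.15% and 14.3% of all genes. Their median difference was -1.55 against WL mouse 1 and -1.04 against WL mouse 2. Xcr1, the chemokine receptor of cross-presenting dendritic cells, was not well above background in either LL mouse and was called with a bound of only 1.41-fold (limma adjusted p = 0.0274). Clec10a, a lectin of type 2 dendritic cells, was at -3.39 and -2.55 against 0.12 and 1.1 (-3.58 ± 0.39, adjusted p = 0.0174), and Itgae, the integrin CD103, at -3.80 and -3.42 against -0.68 and -1.27 (-2.64 ± 0.33, adjusted p = 0.0215). Clec9a, the receptor of type 1 dendritic cells for dying cells, was at -4.86 and -5.22 against -0.49 and -2.38 (adjusted p = 0.0527), with 1 of the 2 LL mice not well above background.

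Platelet and megakaryocyte genes were also low in LL. Of 14 measured genes 9 were called lower, against 1.15% of all genes, and 0 higher, 13 had both LL mice below both WL mice, against 14.3%, and the median difference was -2.62. Ppbp, the platelet chemokine precursor CXCL7, was at -4.53 and -5.81 in LL and at 1.47 and 0.85 in WL (-6.34 ± 0.49, adjusted p = 0.00743), and 1 of the 2 LL mice was not well above background, so the size is uncertain. Pf4, platelet factor 4, was at -0.49 and -0.81 against 2.73 and 3.92 (-3.98 ± 0.46, adjusted p = 0.0189). Clec1b, the podoplanin receptor CLEC-2, was at -3.21 and -3.48 against 0.50 and 0.77 (-3.98 ± 0.31, adjusted p = 0.00743). In each of these the 2 WL mice lay near the LW and WW mice. Gp9, a subunit of the von Willebrand factor receptor, was not well above background in either LL mouse, which bounds the difference at least 30.3-fold. The median of the list was -2.34 against WL mouse 1 and -2.99 against WL mouse 2. The 7 measured red cell genes, a sign of blood left in the tissue, had 0 calls, and their mean against WW was -1.88 and 1 in the LL mice and -0.45 and -1.57 in the WL mice, so the groups overlapped.

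Most lymphocyte genes lay lower in both LL mice than in both WL mice, but the 2 WL mice disagreed on their levels. Both LL mice lay below both WL mice for 14 of 20 T cell genes, 11 of 17 B cell genes and 15 of 18 natural killer (NK) cell genes, against 14.3% of all genes, and 0, 0 and 2 were called lower, against 1.15%. The called NK genes were Klrd1, the receptor chain CD94, at -3.63 and -3.54 in LL against -0.24 and -1.09 in WL (-2.92 ± 0.29, adjusted p = 0.0137), and Klrk1, the activating receptor NKG2D, at -3.94 and -3.72 against -1.06 and -2.04 (-2.28 ± 0.33, adjusted p = 0.0328). Ncr1, the receptor NKp46 that defines NK cells, was not well above background in either LL mouse, at -5.91 and -6.97, and was at -3.81 and -5.22 in WL (adjusted p = 0.209). WL mouse 2 lay nearer the LL mean than WL mouse 1 did for 19 of the 20 T cell, 14 of the 17 B cell and 17 of the 18 NK genes, against 53% of all genes. Against WL mouse 1 the median differences of the T cell, B cell and NK lists were -1.42, -2.50 and -2.63. Against WL mouse 2 they were -0.63, -0.565 and -1.15.

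Cd6, a T cell coreceptor, was at -1.03 and -0.96 in LL and at 1.17 and -0.04 in WL, with 0.89 to 1.32 in LW and WW. WL mouse 1 lay with the wild-type recipients and WL mouse 2 between them and LL. Ptprc, which encodes CD45, the surface marker of all white cells, depended on the probe: its brightest probe gave 4.16 and 4.08 in LL and 4.36 and 4 in WL (-0.06 ± 0.16, adjusted p = 0.92), while 6 dimmer probes gave differences from -3.61 to -0.75.

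Immunoglobulin kappa segments formed the longest run of neighbouring lower genes. On chromosome 6, with probe starts from 68718705 to 69650877 on mm9, 16 of 28 measured genes were called lower, against 1.15% of all genes. Both LL mice lay below both WL mice for 25, against 14.3%. The run starts and ends at a called gene, which raises these shares. The array describes all 16 called genes as immunoglobulin kappa variable segments. Their median level was -1.25 and -0.61 in the LL mice, 2.10 and 1.28 in the WL mice and 0.58 to 1.23 in the LW and WW mice, so this median was higher in both WL mice than in all the others. Of 85 kappa variable segments in all, 17 were called lower, and of 89 heavy chain variable segments 0 were, against 1.15% of all genes. Their median differences were -1.45 and -1.09. The segments are near-identical copies, so a single segment's level is uncertain.

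**Figure D2:**
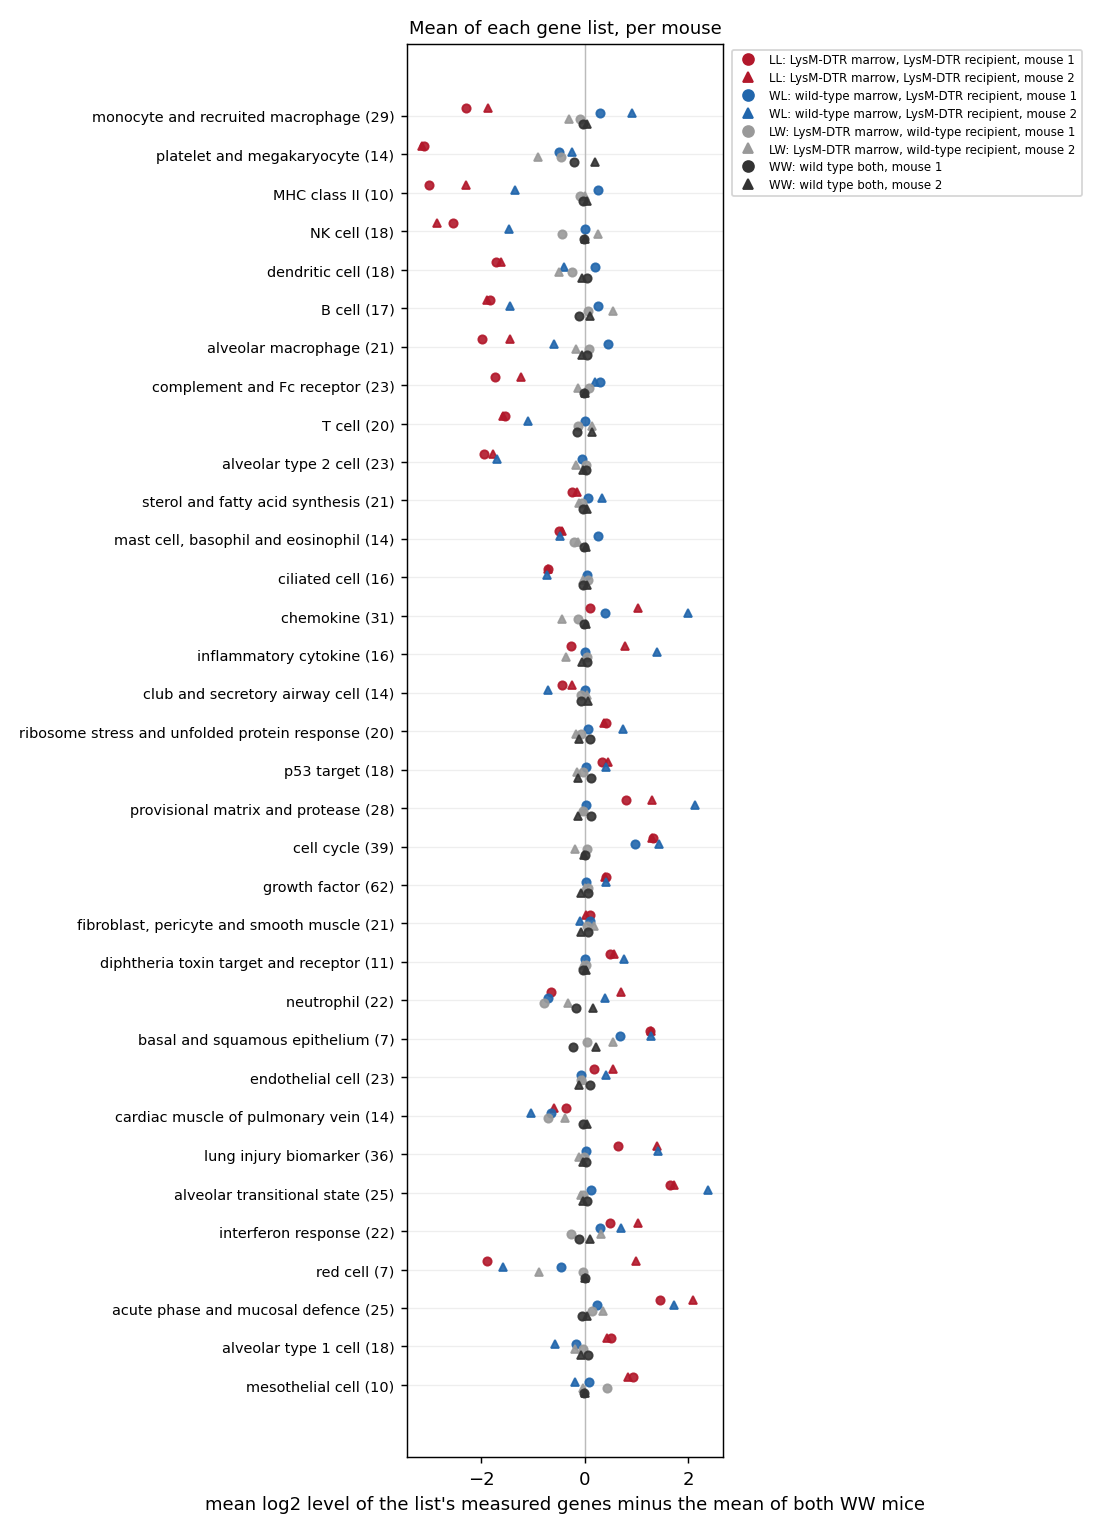
Mean level of each gene list in each of the 8 mice, as the log2 difference from the mean of the WW mice; the number of measured genes is in brackets, and lists are ordered by the difference between LL and WL. Both LL mice lie below the other 6 for monocyte and macrophage genes (-2.30 and -1.86) and platelet genes (-3.10 and -3.15), and WL mouse 2 lies with LL for alveolar type 2 genes (-1.69 against -1.94 and -1.77).

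Neutrophil genes did not follow those of macrophages. Of 22 measured genes 0 were called, 5 had both LL mice above and 4 both below the WL mice, near the shares of all genes, 23.5% and 14.3%, and the median difference was 0.21. The median was 0.59 against WL mouse 1 and -0.19 against WL mouse 2. Ly6g, the surface marker of neutrophils, was at 3.19 and 3.47 in LL and at 1.96 and 3.07 in WL, with 1.61 to 1.91 in LW and WW. Both LL mice and WL mouse 2 thus lay well above the wild-type recipients. Ngp, a protein of neutrophil granules, was at -1.12 and 2.22 in LL and -5.10 and -3.70 in WL (4.95 ± 1.13, adjusted p = 0.111). For Ngp, 1 of the 2 WL mice was not well above background, so the size is uncertain. Camp, the antimicrobial peptide precursor of the same granules, was at -0.57 and 1.86 against -2.59 and -1.70. The LW mice, at -5.72 and -4.37 for Ngp, lay below the WW mice at -1.85 and -2.63. Cxcr2, the chemokine receptor of mature neutrophils, and Il1b, the cytokine that activated myeloid cells release, lay the other way: Cxcr2 was at -3.72 and -2.93 in LL against -1.81 and 0.20 in WL, and Il1b at -3.00 and 0.25 against 1.56 and 2.62, and neither was called.

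The largest called rise in LL was of a stefin A gene, a family of cysteine protease inhibitors found in neutrophils. Stfa3 was at 0.26 and 1.27 in LL and at -4.33 and -3.94 in WL, with -5.09 to -1.60 in LW and WW (4.90 ± 0.75, adjusted p = 0.0408), a 29.9-fold difference. Stfa1, a neighbour on chromosome 16, was at 0.87 and 2.49 against -4.22 and -2.05, with the groups apart but no call (adjusted p = 0.0925). The LW mice reached -0.03 for Stfa1. Members of the cluster are near-identical copies whose probes may share signal.

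In the alveolar epithelium, which is of recipient origin, genes of the type 1 cells that form the gas exchange surface lay higher in LL. All 18 type 1 genes had a positive difference. Both LL mice lay above both WL mice for 13, against 23.5% of all genes, and 1 was called higher, against 0.573%. The called gene, Timp3, an inhibitor of matrix proteases, was at 6.87 and 6.83 in LL, 5.55 and 5.63 in WL and 5.27 to 5.61 in LW and WW (1.26 ± 0.14, adjusted p = 0.0185). Ager, which encodes the receptor RAGE and marks type 1 cells, was at 8.63 and 8.59 in LL and 8.01 and 7.90 in WL, with 8.02 to 8.25 in LW and WW (0.66 ± 0.13, adjusted p = 0.0737). All 7 Ager probes had the same sign, with differences from 0.61 to 1.70. Akap5, an anchor of protein kinase A, was at 5.29 and 5.02 against 4.09 and 2.89, and Scnn1g, a subunit of the epithelial sodium channel, at 3.16 and 3.36 against 2.20 and 1.53, neither called. The median difference of the list was 0.57 against WL mouse 1 and 0.81 against WL mouse 2.

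Type 2 cell genes divided the WL mice. Sftpc, the surfactant protein that defines these cells, was at 7.41 and 7.83 in LL, at 9.51 and 7.55 in WL and at 9.57 to 9.81 in LW and WW (-0.91 ± 0.59, adjusted p = 0.557). WL mouse 2 lay inside the range of the LL mice and WL mouse 1 near the wild-type recipients. Hc, complement component C5, which is on the type 2 list, was at -2.32 and -2.13 in LL and at 3.28 and -1.60 in WL, with 3.03 to 3.52 in LW and WW. Over 23 type 2 genes the median difference was -1.61 against WL mouse 1 and 0.03 against WL mouse 2. WL mouse 2 lay nearer the LL mean for 20, against 53% of all genes. Of the list, 1 gene was called lower, against 1.15% of all genes. That gene was Lyz1, described above.

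Keratins and partners of the transitional state, through which type 2 cells pass on the way to type 1 cells, showed the same division with the sign turned. Of 25 genes 0 were called, and both LL mice lay above both WL mice for 4, against 23.5% of all genes. Krt19 was at 6.14 and 6.04 in LL, 3.76 and 5.89 in WL and 3.63 to 3.77 in LW and WW, and Krt7 at 5.14 and 5.10 against 2.75 and 5.04. For both keratins WL mouse 1 was close to the wild-type recipients and WL mouse 2 close to LL. Cdkn1a, the cell cycle inhibitor p21, was at 4.17 and 4.52 against 2.64 and 4.13. Over the list, WL mouse 2 was above both WW mice for 25 genes and WL mouse 1 for 11, and the list's mean was 1.65 and 1.72 in the LL mice, 0.13 in WL mouse 1 and 2.39 in WL mouse 2. The list's median difference was 1.46 against WL mouse 1 and -0.63 against WL mouse 2. Krt14, a keratin of basal cells, was at 0.24 and -0.43 in LL, -2.38 and -1.37 in WL and -2.91 to -2.31 in LW and WW (1.78 ± 0.37, adjusted p = 0.0922). Airway cells gave 0 calls among 14 club and secretory and 16 ciliated genes. Of the ciliated genes, 15 had a difference below 0, with a median of -0.76 against WL mouse 1 and 0.07 against WL mouse 2, and WL mouse 2 lay nearer the LL mean for 15. For the club and secretory genes the median was -0.21 against WL mouse 1 and 0.45 against WL mouse 2. Scgb1a1, the club cell secretory protein, was at 9.44 and 9.45 in LL and 9.35 and 8.99 in WL.

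Most genes of the mesothelium, the sheet that covers the lung surface, lay higher in both LL mice. Of 10 measured genes 7 had both LL mice above both WL mice, against 23.5% of all genes, and 2 were called higher, against 0.573%. The median difference was 1.09, or 0.68 against WL mouse 1 and 1.24 against WL mouse 2. Wt1, the transcription factor that marks mesothelium, was at 1.34 and 1.06 in LL, -0.25 and -0.18 in WL and -0.69 to -0.37 in LW and WW (1.42 ± 0.17, adjusted p = 0.021). Upk1b, a uroplakin, was at 2.53 and 2.10 against 1.23 and 0.79 (1.30 ± 0.21, adjusted p = 0.0483). Both genes had both LL mice above all 6 other mice. Prg4, the lubricating proteoglycan, was at 0.95 and 1.80 in LL and at -1.74 and 0.20 in WL, and all 4 lay above the LW and WW mice, at -2.71 to -2.20 (adjusted p = 0.187). Outside the list, Dmkn, dermokine, which mesothelial and squamous cells make, was at 4.25 and 4.49 in LL against 2.78 and 2.57 in WL (1.70 ± 0.26, adjusted p = 0.0397), and Tbx18, a T-box factor of mesothelium and pericytes, at -1.36 and -1.62 against -3.22 and -3.23 (1.73 ± 0.16, adjusted p = 0.0121).

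Of 23 endothelial genes 0 were called, 7 lay higher and 2 lower in both LL mice, near the shares of all genes, 23.5% and 14.3%. The median difference was 0.36 against WL mouse 1 and 0.04 against WL mouse 2. Cldn5, the tight junction protein of endothelium, was at 5.98 and 6.38 in LL and 5.41 and 5.39 in WL (0.78 ± 0.18, adjusted p = 0.115), and Apln, the ligand apelin, at 1.36 and 0.84 against 2.39 and 2.54 (-1.36 ± 0.30, adjusted p = 0.102). The 21 fibroblast, pericyte and smooth muscle genes had 0 calls and as many higher as lower in both LL mice, 5 each, which is also near those shares. Here the median difference was 0.04 against WL mouse 1 and 0.06 against WL mouse 2. Col1a1, collagen I, was at 4.42 and 4.61 in LL and 3.84 and 4.69 in WL.

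Other genes called higher in LL came from no single list. Calcb, the beta form of calcitonin gene-related peptide, was at -1.26 and -1.24 in LL and at -4.09 and -4.82 in WL, with -3.75 to -3.30 in LW and WW (3.21 ± 0.28, adjusted p = 0.00986). Akr1c14, a steroid dehydrogenase, was at 2.22 and 2.77 against -0.15 and 0.44 (2.35 ± 0.29, adjusted p = 0.0211), and Adamts15, a protease of matrix proteoglycans, at 3.72 and 3.64 against 1.91 and 1.28 (2.08 ± 0.22, adjusted p = 0.0167). In each of these 3 genes both LL mice lay above all 6 other mice. Nkx6-2, a homeobox factor, was at 0.24 and 0.01 against -2.11 and -2.18 (2.27 ± 0.14, adjusted p = 0.00579), and Fam3b, a secreted cytokine-like protein, at -1.49 and -1.15 against -4.21 and -4.28 (2.92 ± 0.28, adjusted p = 0.0123). Vpreb2, a surrogate light chain gene with a near-identical copy, Dmrtb1, Lrrn4cl and Spert were called with differences from 1.86 to 2.51. Arsb, a lysosomal sulfatase, was called on its brightest probe (2.10 ± 0.22, adjusted p = 0.0146), but its other 2 probes gave 0.10 and -0.04. Of the called higher genes, 26 were not well above background in either WL mouse, the named ones with the highest bounds being Lypd8, Gpr62 and Defb22 at 5.11-fold, 4.34-fold and 3.53-fold at least.

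**Figure D3:**
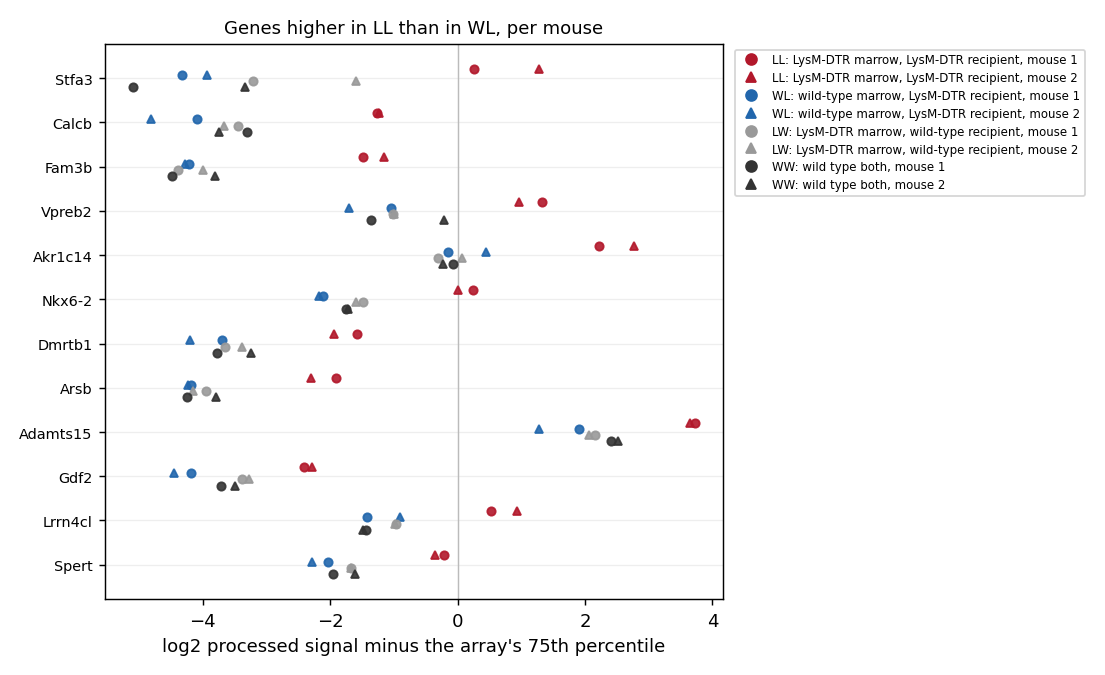
Level of the 12 genes with the largest called rise in LL among those above background on all 4 LL and WL arrays, on the same log2 axis, each symbol 1 mouse. The LL mice lie to the right of the other 6 for every gene, for example for Stfa3 at 0.26 and 1.27 against -1.60 in the nearest other mouse, and by under 1 for Gdf2, at -2.41 and -2.28 against -3.27.

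Secreted growth factors, which the series was set up to search for with biomarkers of lung injury, had 1 of 62 called higher and 0 lower, against 0.573% and 1.15% of all genes. The median difference of the list was 0.20 against WL mouse 1 and -0.02 against WL mouse 2. The gene called with all mice was Ptn, pleiotrophin, a heparin-binding growth factor of mesenchyme, at 0.01 and -0.33 in LL, at -1.94 and -2.09 in WL and at -2.06 to -1.42 in LW and WW (1.85 ± 0.24, adjusted p = 0.0257). Gdf2, the circulating bone morphogenetic protein BMP9, which is not on that list, was at -2.41 and -2.28 in LL, -4.18 and -4.45 in WL and -3.71 to -3.27 in LW and WW (1.97 ± 0.16, adjusted p = 0.00879). For both factors each LL mouse lay above all 6 other mice. Vegfc, the lymphatic growth factor, was at 2.04 and 1.94 against 1.02 and 1.28 (0.84 ± 0.15, adjusted p = 0.0586), and Pdgfb, a platelet-derived growth factor chain, at 3.52 and 3.26 against 4.02 and 4.62 (-0.93 ± 0.22, adjusted p = 0.125). Hbegf is the mouse gene of a growth factor whose human form is a receptor for the toxin. It was at 4.12 and 4 in LL, 2.39 and 4.09 in WL and 2.18 to 2.30 in LW and WW. WL mouse 2 thus equalled the LL mice; whether this probe also binds the transgene's RNA is not given in the sources used here. Of 36 lung injury biomarkers 0 were called, and 8 lay higher and 1 lower in both LL mice, against 23.5% and 14.3% of all genes. Their median difference was 0.595 against WL mouse 1 and -0.09 against WL mouse 2. Hmgb1, a nuclear protein released by dying cells, was at 4.38 and 4.43 in LL and 3.85 and 3.86 in WL (0.55 ± 0.16, adjusted p = 0.186).

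Several inflammatory and acute phase genes were high in both LL mice and in WL mouse 2, and low in WL mouse 1. Saa3, the serum amyloid made in inflamed lung, was at 6.20 and 8.21 in LL, 1.83 and 6.52 in WL and 1.02 to 3.05 in LW and WW. Il6 was at -0.31 and 1.40 in LL and at -2.90 and 1.99 in WL, with -4.51 to -3.32 in LW and WW. Cxcl1, which draws neutrophils, was at 3.53 and 3.91 in LL and at -1.70 and 4.12 in WL, with -2.46 to -0.92 in LW and WW. In these 3 genes WL mouse 1 lay within or close to the range of the wild-type recipients, the WL mice lay more than 4 apart, and the differences had standard errors from 1.46 to 1.73 and adjusted p values from 0.421 to 0.836. Of 25 acute phase and mucosal defence genes 0 were called. Their median difference was 1.24 against WL mouse 1 and 0.10 against WL mouse 2. Lif, an IL-6 family cytokine, was at 0.27 and 0.09 in LL and -1.85 and -0.79 in WL (1.5 ± 0.38, adjusted p = 0.144), and Slpi, a secreted protease inhibitor, at 5.46 and 5.89 against 5.11 and 4.95 (adjusted p = 0.205).

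Proliferation genes gave no call between LL and WL, and most of them lay above the WW mice in both groups. Mki67, the marker of cycling cells, was at 2.33 and 2.47 in LL, 2.44 and 2.43 in WL and 0.95 to 1.34 in LW and WW, a difference between LL and WL of -0.04 ± 0.17 (adjusted p = 0.953). Ccnb2, cyclin B2, was at 1.59 and 1.51 in LL, 0.77 and 1.32 in WL and -0.53 to -0.17 in LW and WW. All 4 mice with a LysM-DTR recipient thus lay above all 4 with a wild-type recipient in both genes. Of 39 cell cycle genes 0 were called in LL against WL, with a median difference of 0.10. The median was 0.28 against WL mouse 1 and -0.085 against WL mouse 2. Both LL mice lay above both WW mice for 38 and both WL mice for 36. A test that misses the threshold does not show that the groups were equal.

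**Figure D4:**
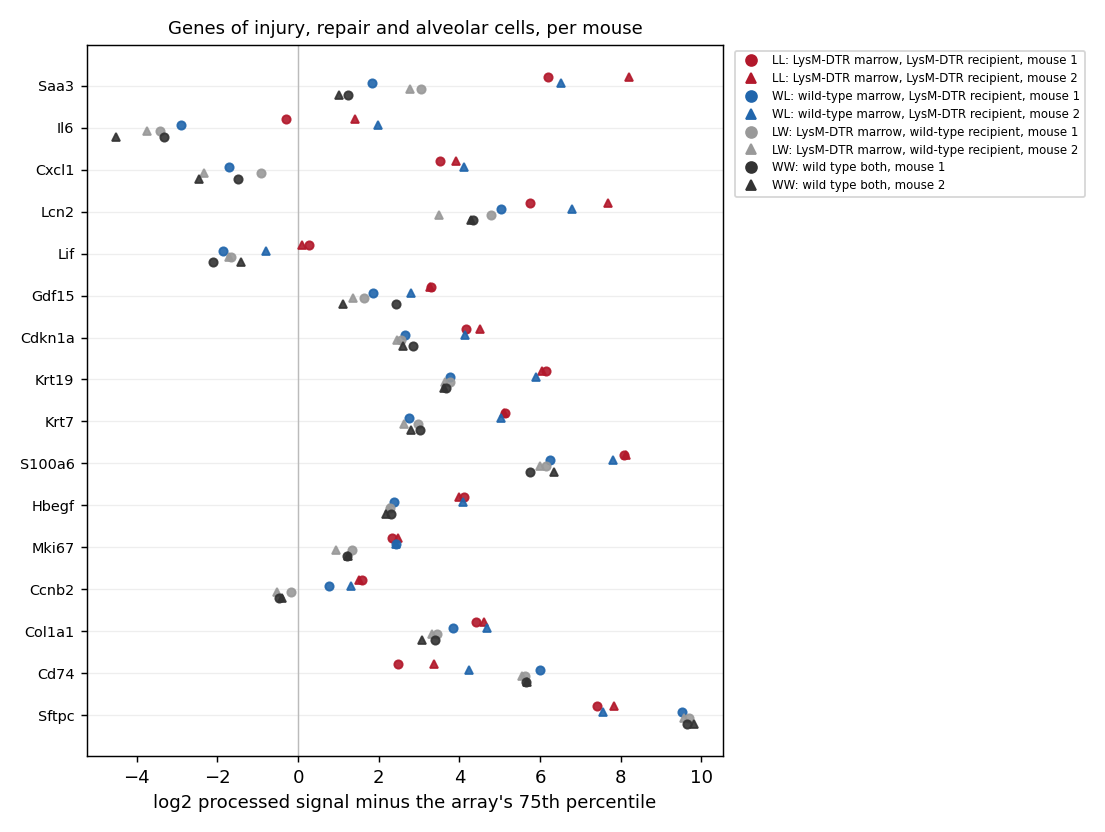
Level of 16 genes of inflammation, repair, proliferation, antigen presentation and alveolar cells in each mouse, on the log2 axis used above. WL mouse 2 (blue triangles) lies with the LL mice for Cxcl1, Krt19, Krt7, Hbegf and Sftpc, WL mouse 1 (blue circles) with the wild-type recipients, and both lie with LL for Mki67, at 2.44 and 2.43.

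The same pair of marrow genotypes in wild-type recipients, LW against WW, gave 14 called genes (0.0542%); this contrast shares no group mean with LL against WL, but both take their spread from all 8 arrays. Leaving out a mouse gave 8 (LW mouse 1), 5 (WW mouse 2), 2 (either WL mouse) or 0 (LW mouse 2, WW mouse 1 or either LL mouse). Ms4a7, Cx3cr1, Clec7a, C1qa and C1qc were not called there. Their LW minus WW differences were 0.06, -0.41, -0.27, -0.01 and -0.13. The test of the difference between the 2 contrasts, the donor by recipient interaction, called 16 genes (0.0619%). Its largest values were those of Ms4a7 (-6.80 ± 0.30, adjusted p = 0.00892), Cx3cr1 (-6.01 ± 0.49, adjusted p = 0.0412), Clec7a (-5.98 ± 0.51, adjusted p = 0.0433), C1qa (-5.83 ± 0.33, adjusted p = 0.0216) and C1qc (-5.71 ± 0.39, adjusted p = 0.0314). For Ms4a7 and Cx3cr1, 1 of the 2 LL mice was not well above background. Whether the place in the slide column contributed to these values was not tested. Of the 16, 13 were also called in LL against WL, all lower. Leaving out WL mouse 1 or WL mouse 2 raised the count to 223 and 2209, and leaving out LL mouse 1 lowered it to 0, LL mouse 2 to 10, either LW mouse to 1 and either WW mouse to 0. The median LW minus WW difference was -0.15 for the monocyte and macrophage list and -0.68 for the platelet list, against -2.89 and -2.62 for LL minus WL.

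**Figure D5:**
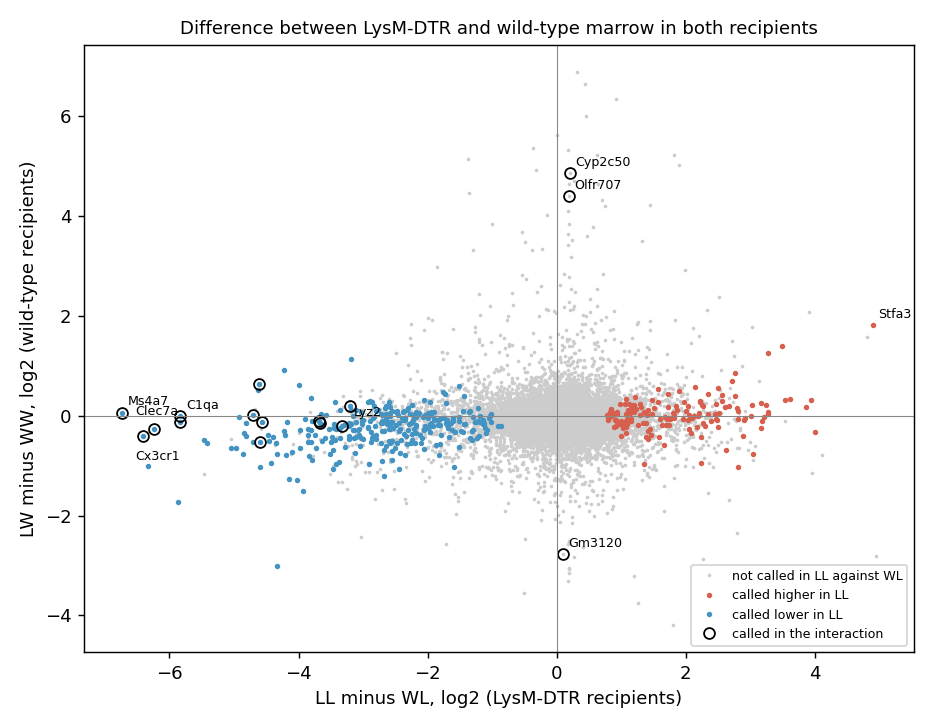
Difference between LysM-DTR and wild-type marrow in LysM-DTR recipients (x axis, LL minus WL, log2) and in wild-type recipients (y axis, LW minus WW, log2), 1 point a gene over 25830 genes, with the called genes in colour and the interaction calls ringed. The 13 rings at the left are genes such as Ms4a7, at -6.74 and 0.06, and the 3 near the vertical axis differ in wild-type recipients.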

How the data were processed

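Total RNA of 8 lungs, 1 per mouse, was labelled with Cy3 and read on one-colour Agilent arrays, per the labels' protocols. The deposited array files hold processed signal intensity made with Agilent Feature Extraction (version 11.5.1.1, per the submitters' processing notes), which per the file headers was corrected for background within each array but not scaled between arrays, with other columns for flags and probe positions on mm9. The deposited series table holds log2 values that match log2 of the processed intensity minus each array's 75th percentile. Control spots and non-uniform spots were left out, spots of a probe were averaged, log2 taken and the 75th percentile subtracted. Probes well above background on both arrays of a group were kept (39595), and a gene was given by its brightest probe, which left 25830 genes.

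The test was limma's (version 3.58.1, R 4.3.3) on 4 group means over all 8 arrays, with 4 residual and 2.19 prior degrees of freedom; p-values were adjusted by Benjamini-Hochberg over the 25830 genes, and called under 0.05; the script was tested on simulated data. The labels do not say that the mice of a group came from separate experiments, so p-values measure the spread between these mice, whose number limits the precision. That spread was pooled over the 4 groups. The WL mice differed by a median of 0.442 on the log2 scale, the mice of the other groups by 0.12 to 0.17. The simulated data had the same spread in every group, so they cannot show what this does to the calls. In them, 14 of 50 changes of 1 on the log2 scale were called. The comparison and the gene lists were chosen with earlier results of these data known. On each side, the 12 called genes of largest difference and the 10 of widest gap were named, all above background on the 4 arrays. Up to 4 members of each list, 3 of each side with the highest bounds, the 5 largest of the interaction and marker genes were also named. The interaction genes named beyond these, Xist, Xcr1, Csf1r, Ly6c2 and the runs of neighbouring genes were named after their values were seen. The genes whose upstream bases are shown were picked outside these rules. Same-numbered LL and WL mice deviated together by a correlation of 0.19, and the other pairs of groups by -0.10 to 0.05, so the numbers were not taken to pair the mice. Other background corrections, scalings, filters, probe rules, fits and left-out mice were tried.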

Additional observations from a re-analysis of the deposited data

Results flagged for a closer look

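For 16 genes the difference between the marrow genotypes was another in LysM-DTR than in wild-type recipients, by limma's test of the interaction (adjusted p under 0.05); values are (LL minus WL) minus (LW minus WW) on the log2 scale. Myeloid genes made up 13 of them, all below 0. They were Ms4a7 at -6.80, Cx3cr1 at -6.01, Clec7a at -5.98, C1qa at -5.83, C1qc at -5.71, C1qb at -4.44, the haemoglobin scavenger receptor Cd163 at -5.24 and the inhibitory receptor Cd200r1 at -4.71. Serpinb10, Scimp, Aif1, Slamf9 and Pld4 were at -4.07, -3.58, -3.52, -3.40 and -3.13. Cd163, Cd200r1 and Serpinb10 were not well above background in either LL mouse, and Ms4a7 and Cx3cr1 in 1 of the 2, so the sizes of their values are uncertain. In the wild-type recipients the same 13 genes had LW minus WW differences between -0.52 and 0.63.

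The remaining 3 differed in the wild-type recipients. Cyp2c50, a cytochrome P450 gene, was at -4.66, with levels of -2.28 and -1.89 in LW and of -6.63 or lower in the other 6 mice. Olfr707, an odorant receptor gene, was at -4.20, with -2.61 and -2.29 in LW and -6.52 or lower elsewhere. Gm3120, a predicted gene, was at 2.88, with -3.70 and -3.76 in WW and -6.49 or lower elsewhere. Each had both mice of the one group high, and the other 6 were not well above background, so the sizes of these values depend on background signal.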

How the results depend on the processing

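None of the 62 called genes that the rule names changed direction under any alternative, and of the 445 called genes 440 kept their direction under normexp and all 445 under each other alternative but the stricter filter, which measured 339, all in the same direction. Without the detection filter 83 genes were higher, 172 lower and 1 in the interaction; the fit to LL and WL alone gave 0 and 0. With the replicate block (same-numbered mice taken as pairs) 74 were higher and 198 lower, 251 of the 445 were still called and the interaction count was 2. The interaction count was 53 with quantile normalization, 4 when all LL and WL arrays had to be above background and 10 with normexp. Leaving out 1 mouse moved the higher count between 0 and 2782, the lower count between 23 and 2309, the interaction between 0 and 2209, LW against WW between 0 and 8, and the non-overlapping counts between 6063 and 12272 higher and 3703 and 9372 lower, the last because fewer mice must separate. Other causes were not tested. A probe at background gives only a bound, which limits the 50 called lower genes not well above background in either LL mouse.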

Other observations

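Some further gene groups had 0 genes called by limma. Of 21 sterol and fatty acid synthesis genes, 10 had both LL mice below both WL mice, against 14.3% of all genes, and 2 above, against 23.5%. The median difference was -0.55, or -0.20 against WL mouse 1 and -0.61 against WL mouse 2. Insig1, the brake on sterol synthesis, was at -1.93 and -1.86 in LL against -1.33 and -1.29 in WL, and Dhcr7, the last enzyme of cholesterol synthesis, at -2.46 and -3.19 against -1.76 and -2.07. A pair of fatty acid genes lay the other way: Elovl6, an elongase, at 3.06 and 2.94 against 1.71 and 1.47 (adjusted p = 0.0742), and Scd2, a desaturase, at 5.39 and 5.61 against 4.97 and 3.78. Of 22 interferon response genes 0 were called, and 10 lay higher and 1 lower in both LL mice, against 23.5% and 14.3% of all genes. Ifit2 was at -0.33 and -0.42 against -1.18 and -0.93. Cxcl9, the interferon-induced chemokine, was at -5.43 and -1.88 against 0.28 and -0.95, with 1 of the 2 LL mice not well above background. Of 20 genes of ribosome stress and the unfolded protein response 0 were called. In both LL mice 7 lay lower and 2 higher, against 14.3% and 23.5% of all genes, and 11 overlapped. Sdf2l1, a stress-induced protein of the endoplasmic reticulum, was at -0.03 and 0.00 against 0.86 and 0.77 (adjusted p = 0.0843), and Creld2 at 3.98 and 3.89 against 4.77 and 4.56 (adjusted p = 0.101).

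Called lower genes formed 13 runs of at least 3 whose neighbouring probes lay within 200000 bases, many with other genes between them. Besides the C1q genes and the kappa segments, 5 of 11 measured genes of the Ms4a region of chromosome 19 (probe starts 11375984 to 11644021 on mm9) were called. In the Cd300 region of chromosome 11 (114763183 to 114858119), which encodes receptors for lipids on myeloid cells, 4 of 5 were called. The share over all genes was 1.15%, but each run starts and ends at a called gene, which raises its own share. Xist, the RNA that coats the inactive X chromosome in female cells, was also called lower in LL, though all mice are labelled male. It was at -6.02 and -5.40 in LL, not well above background, at -2.35 and -3.25 in WL, and at -4.02, -3.67, -2.92 and -2.84 in the LW and WW mice (limma adjusted p = 0.0207); the sex of the marrow donors is not given in the sources used here.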
